A study of Homo sapiens with 24 samples.

Results

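HPNE cells that had received vesicles from PANC-1 cells were compared with HPNE cells that had received vesicles from PPCL-68 cells, to find the genes that tell the vesicle sources apart. The comparison used 6 of the study's 24 RNA-seq libraries, 3 for each source. It covered the 11503 of 48162 listed genes whose mean FPKM over the 12 HPNE libraries was at least 1. FPKM is the number of reads of a gene scaled to its length and to the total of its library. The genes nearest to that limit were CTD-2620I22.7 at 1.00056 and TMEM44-AS1 at 1.00093 mean FPKM, just inside, and ZNF583 at 0.999839 and PCDHB8 at 0.999806, just outside.

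HPNE is hTERT-HPNE, a non-cancer human pancreas line immortalised with the telomerase gene. All 4 groups of HPNE cells were kept in serum-free medium for 24 h. The vesicle groups received 1e10 vesicles per well, from PANC-1, an established pancreatic carcinoma line, or from PPCL-68, which the study lists as a pancreas cancer cell source. The untreated group received fresh medium, and the residual group received the medium left behind when vesicles had been isolated. Each group had 3 libraries, described by the submitters as biological triplicates with no further detail on the cultures, so p-values measure the spread between those libraries. The same 4 treatments were given, in libraries of their own, to HPDE-H6c7 cells (HPDE), which are immortalised pancreatic duct epithelium. In whole-culture RNA, fewer cells of a kind and less RNA per cell cannot be told apart.

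Extracellular vesicles are membrane-bound particles that cells release, and they carry proteins, lipids and RNA into the cells that take them up. The study asked whether such vesicles set off the unfolded protein response, the program by which a cell with misfolded protein in its endoplasmic reticulum (ER) makes more chaperones, speeds up degradation of ER proteins and slows translation. Its sensors are ATF6, IRE1, which splices XBP1, and PERK, which acts through ATF4 and CHOP (the product of DDIT3). A second control system seated in the ER membrane sets the supply of cholesterol: when sterols are scarce, SREBP-2 (the product of SREBF2) is released from the ER and raises the genes of sterol synthesis.

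Reads assigned to genes numbered 29874928 to 46490312 per vesicle library. Library 1 stood apart from libraries 2 and 3 in each vesicle group. The root mean square log2 distance between libraries 2 and 3 was 0.16 with PANC-1 vesicles and 0.15 with PPCL-68 vesicles, and library 1 lay 0.31 to 0.36 from them. Library 3 stood apart in the same way in the residual and untreated groups, at 0.33 to 0.46 from the others. No libraries were duplicates. Of 8 HPNE line genes 7 averaged 1 FPKM or more (TERT at 119 to 179 FPKM in the 6 vesicle libraries), and S100A4 had at most 40 reads. The vesicle groups did not overlap for VIM, at 207 to 330 FPKM with PANC-1 and 149 to 192 FPKM with PPCL-68 vesicles. COL1A2, at 1033 to 1448 and 637 to 894 FPKM, and SPARC did not overlap either. Nor did NES, at 17.9 to 23.5 and 8.39 to 14.3 FPKM. Of the 7 line genes 4 were higher by sign with PANC-1 vesicles and 3 lower. Among the lower was CDH2, at 14.7, 17.8 and 27.3 FPKM with PANC-1 and 23.8, 59.0 and 61.6 FPKM with PPCL-68 vesicles. The groups overlapped for CDH2, TERT and FN1. The part of these differences in the results was not tested. Duct genes were nearly absent: EPCAM had at most 4 reads in any vesicle library, CDH1 at most 20, and KRT8 and KRT18 were the 2 of 13 that averaged 1 FPKM or more in the 12 HPNE libraries. The summed level of that list was 6.08 to 9.12 FPKM with PANC-1 vesicles and 6.09 to 8.46 FPKM with PPCL-68 vesicles. Lists for basal epithelial, acinar, endocrine, endothelial and blood cells had no member at that level.

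The vesicle sources differed at 629 of 11503 genes (5.47%; limma on log2(FPKM + 1), Benjamini-Hochberg adjusted p under 0.05). Of these, 370 (3.22%) were higher with PANC-1 vesicles and 259 (2.25%) were higher with PPCL-68 vesicles. Most differences were small: the median size was 0.59 on the log2 scale among the 370 and 0.49 among the 259, and 58 genes differed by at least 1, of which 45 were higher with PANC-1 vesicles. The libraries of the vesicle groups did not overlap at any of the 629. Called or not, they did not overlap at 1739 genes higher and 1745 genes lower with PANC-1 vesicles, of 11503 tested. Protein-coding genes made up 595 of the 629 called genes and 10558 of the 11503 tested. At an unadjusted p under 0.05 there were 2678 genes. The plot of all tested genes shows the called genes at every level of expression.

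**Figure D1:**
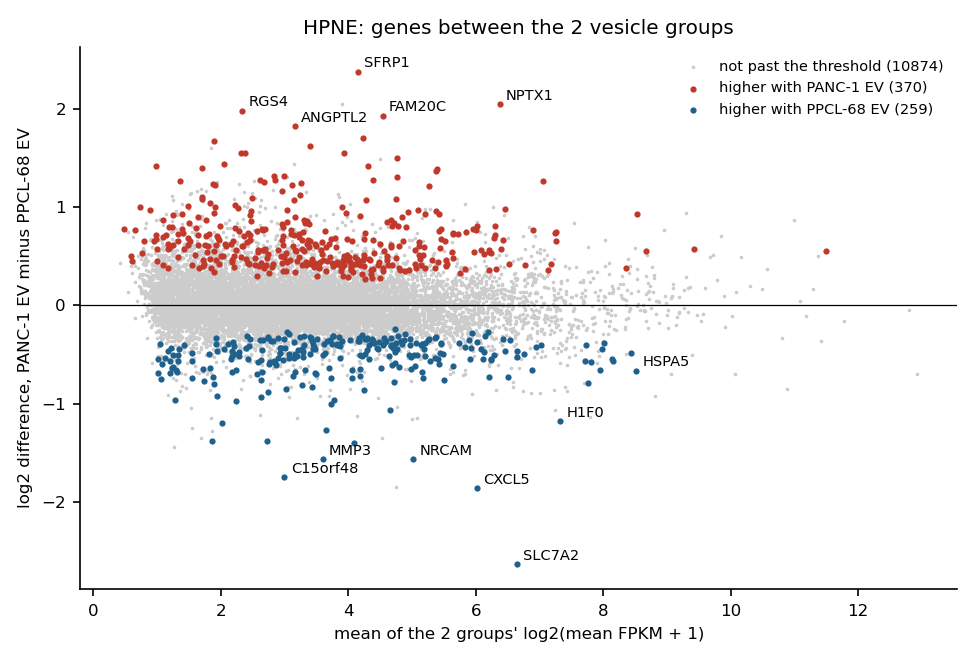
Difference between the vesicle groups (PANC-1 minus PPCL-68, mean log2(FPKM + 1), vertical axis) against the mean level of the gene (horizontal axis, log2 scale) for each of 11503 genes in HPNE. Red points are the 370 genes higher with PANC-1 vesicles and blue points the 259 higher with PPCL-68 vesicles; SFRP1 and SLC7A2 lie farthest from 0.

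The number of calls rested on single libraries. It was 149, 135 and 159 without PANC-1 library 2, PPCL-68 library 2 or PPCL-68 library 3, 296 and 394 without PANC-1 library 1 or 3, 401 and 413 without untreated library 1 or 2, and 1309 without residual library 3. With PPCL-68 library 1 left out the calls rose from 370 to 625 for genes higher with PANC-1 vesicles. Each of the 629 genes kept its direction in each of these fits. That was fixed in advance, since their vesicle libraries did not overlap and control libraries do not enter the difference. Of the 629, 112 (72 higher with PANC-1 vesicles, 40 with PPCL-68 vesicles) passed whichever of the 12 libraries was left out. Libraries of the same number deviated together in the vesicle groups, and a fit of the 6 libraries with the number as a block called 1908 genes (16.6%), 1170 higher with PANC-1 vesicles and 738 with PPCL-68 vesicles, among them 613 of the 629. Without both libraries numbered 1 there were 545 calls, of which 379 were higher with PANC-1 vesicles, and 370 of the 629 were among them.

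SLC7A2, a transporter of the cationic amino acids arginine, lysine and ornithine, showed the largest difference of all. It lies on chromosome 8 (hg19, 17354597 to 17428082). Its levels were 32.4, 37.0 and 46.6 FPKM in the PANC-1 libraries and 161, 303 and 295 FPKM in the PPCL-68 libraries, 6.54-fold higher by the means. The PANC-1 libraries lay close to those with residual medium, at 28.9, 35.1 and 32.1 FPKM, and all were above the untreated libraries, at 5.09 to 5.36 FPKM. The log2 difference was -2.64 ± 0.21 (SE), with an adjusted p of 0.0007.

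The other 14 of the 15 genes that led the PPCL-68 side had log2 differences of -0.97 to -1.86. CXCL5, a chemokine that attracts neutrophils, had 27.3, 38.1 and 34.2 FPKM with PANC-1 vesicles and 109.9, 124 and 133 FPKM with PPCL-68 vesicles (log2 difference -1.86 ± 0.32 (SE), adjusted p = 0.0107). Residual medium alone gave 183, 163 and 61.5 FPKM and fresh medium less than 1 FPKM, so the PANC-1 libraries were the low ones among cells given conditioned material. IL32, a proinflammatory cytokine, had 10.6, 8.74 and 9.03 FPKM with PANC-1 vesicles against 24.2, 28.0 and 27.7 FPKM (log2 difference -1.40 ± 0.14 (SE), adjusted p = 0.0019). C15orf48, which encodes a small mitochondrial protein, had 2.23, 3.91 and 4.02 FPKM against 15.3, 14.0 and 11.4 FPKM (log2 difference -1.75 ± 0.27 (SE), adjusted p = 0.0057). The highest PANC-1 library stayed below the lowest PPCL-68 library for each of these genes, as the choice of the 15 among genes without overlap required. MMP3, the matrix protease stromelysin-1, had 3.53, 6.68 and 8.33 FPKM against 20.8, 16.2 and 21.3 FPKM. Its log2 difference was -1.56 ± 0.35 (SE), with an adjusted p of 0.0293 that became 0.135 without the libraries numbered 1.

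NRCAM, a neuronal cell adhesion molecule, had 14.5, 18.6 and 20.5 FPKM with PANC-1 vesicles and 46.9, 58.4 and 58.0 FPKM with PPCL-68 vesicles (log2 difference -1.56 ± 0.21 (SE), adjusted p = 0.0041). The PANC-1 libraries overlapped the residual ones, which had 17.1, 16.6 and 26.4 FPKM. H1F0, the linker histone H1.0 of slowly dividing and differentiated cells, had 90.6, 115 and 113 FPKM against 253, 241 and 228 FPKM (log2 difference -1.18 ± 0.15 (SE), adjusted p = 0.0038), and both vesicle groups were above the residual and untreated libraries at 46.2 to 67.6 FPKM. PMEPA1, a target and inhibitor of TGF-beta signalling, had 1.17, 0.994 and 1.40 FPKM against 2.37, 5.49 and 7.36 FPKM (log2 difference -1.38 ± 0.28 (SE), adjusted p = 0.0185). The receptor phosphatase PTPRK, also a known TGF-beta target, had 15.1, 16.0 and 17.0 FPKM against 23.3, 41.1 and 43.4 FPKM (log2 difference -1.07 ± 0.18 (SE), adjusted p = 0.0094). For PMEPA1 and PTPRK, PPCL-68 library 1 was the lowest of its group, though above every PANC-1 library as the choice of the 15 required. The remaining genes of the 15 were the transcription factor FOXQ1 (-1.38), the cadherin CDH4 (-1.27), the secretory granule protein SCG5 (-1.20), the thiamine transporter SLC19A2 (-1.001), the lysosomal carrier SLC46A3 (-0.97) and the endothelial lipase gene LIPG (-0.97), given here as log2 differences.

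The 15 genes that led the PANC-1 side had log2 differences of 1.42 to 2.38. FAM20C, the kinase that phosphorylates secreted proteins in the Golgi, had 49.7, 48.3 and 33.6 FPKM with PANC-1 vesicles and 16.1, 8.05 and 9.05 FPKM with PPCL-68 vesicles (log2 difference 1.93 ± 0.22 (SE), adjusted p = 0.0025). ANGPTL2, a secreted angiopoietin-like protein, had 19.2, 17.0 and 11.8 FPKM against 3.59, 3.49 and 4.10 FPKM (log2 difference 1.82 ± 0.15 (SE), adjusted p = 0.0007). SCG2, the granule protein secretogranin II, had 33.3, 24.0 and 19.1 FPKM against 8.01, 7.52 and 7.89 FPKM (log2 difference 1.55 ± 0.22 (SE), adjusted p = 0.0043). All 3 genes were higher again in untreated cells, at 69.7 to 74.6, 31.2 to 38.9 and 80.1 to 122 FPKM in the order given. The PANC-1 libraries therefore held levels between those of untreated and PPCL-68 cells.

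NPTX1, neuronal pentraxin 1, was the most abundant of this group, with 122, 220.2 and 152 FPKM in the PANC-1 libraries against 22.4, 43.7 and 55.3 FPKM in the PPCL-68 libraries (log2 difference 2.05 ± 0.37 (SE), adjusted p = 0.0126). SFRP1, a secreted inhibitor of Wnt signalling, had the largest log2 difference, 2.38 ± 0.61 (SE), and the widest spread. Its levels were 19.8, 59.9 and 42.3 FPKM with PANC-1 vesicles and 4.15, 7.47 and 7.92 FPKM with PPCL-68 vesicles. The untreated libraries ranged from 27.5 to 113 FPKM, and the residual ones from 13.8 to 48.4 FPKM. The adjusted p of SFRP1 was 0.0474, and it passed in 2 of 12 fits that left out 1 library, those without residual library 3 or untreated library 3.

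The next genes of the 15 differed in where they stood against the controls. HBEGF, a ligand of the EGF receptor, had 11.9, 20.2 and 21.5 FPKM with PANC-1 vesicles and 5.01, 5.29 and 4.55 FPKM with PPCL-68 vesicles (log2 difference 1.62 ± 0.26 (SE), adjusted p = 0.0069). Here the PANC-1 libraries were the highest of all 12, above residual medium at 6.04 to 10.3 FPKM and fresh medium at 1.64 to 3.64 FPKM. BDKRB2, the bradykinin B2 receptor, had 26.3, 39.9 and 30.9 FPKM against 13.9, 6.67 and 8.00 FPKM (log2 difference 1.70 ± 0.34 (SE), adjusted p = 0.0185). TNFRSF21, death receptor 6, had 46.4, 49.5 and 38.3 FPKM against 17.1, 12.5 and 16.2 FPKM (log2 difference 1.496 ± 0.20 (SE), adjusted p = 0.0041). RAB27B, a small GTPase that docks vesicles for secretion, had 8.73, 8.31 and 5.29 FPKM against 3.08, 1.31 and 1.39 FPKM (log2 difference 1.56 ± 0.23 (SE), adjusted p = 0.0053). None of these genes had a PANC-1 library within the PPCL-68 range, but the 15 were picked among called genes without overlap. JUP, the junction protein plakoglobin, had a log2 difference of 1.67, but its span overlaps the abundant gene EIF1 on the other strand, and the library kit kept no strand. The others of the 15 were RGS4 (1.98), LRRC32 (1.56), ADAMTSL1 (1.44), TNFRSF19 (1.42) and AC112205.1 (1.42), of which the last lies across CCNG1 on the other strand. AC112205.1 had only 11, 7 and 8 reads with PANC-1 vesicles against 0, 1 and 1 with PPCL-68 vesicles. RGS4 and ADAMTSL1 each passed in 6 of 12 fits without 1 library. Without the libraries numbered 1, RGS4, ADAMTSL1 and AC112205.1 were not called (limma adjusted p of 0.0981, 0.0647 and 0.0581).

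**Figure D2:**
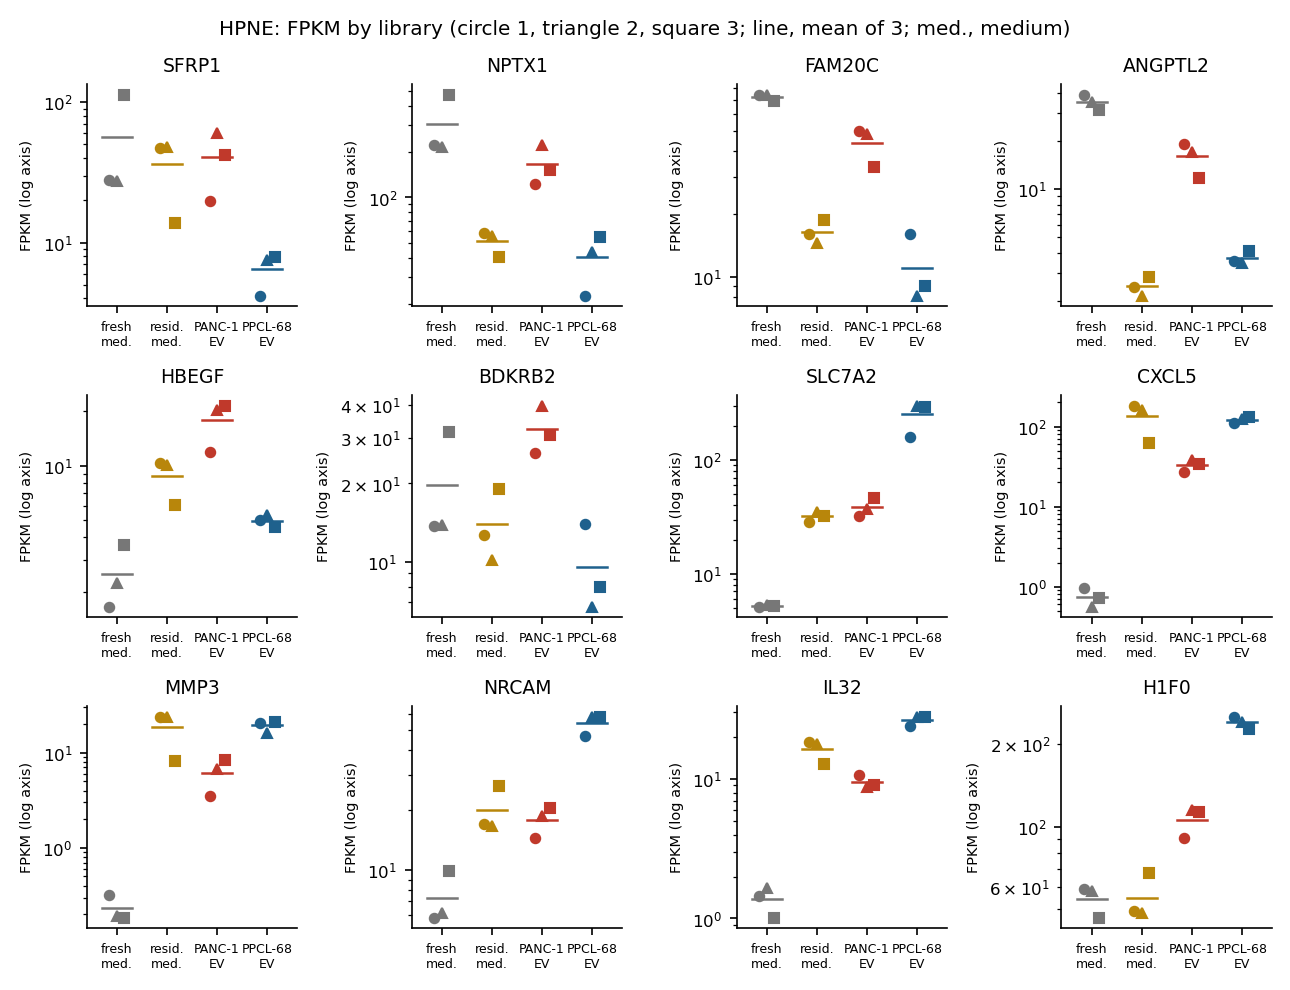
FPKM (vertical axes, log scale) of 12 genes in each HPNE library, by group; circles, triangles and squares are libraries 1, 2 and 3 and lines are group means. In every panel the 3 PANC-1 points and the 3 PPCL-68 points do not overlap, which the rule that picked these genes required. SLC7A2 and H1F0 are highest with PPCL-68 vesicles and HBEGF is highest with PANC-1 vesicles.

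Genes of cholesterol and fatty acid synthesis were higher with PANC-1 than with PPCL-68 vesicles. Of 33 listed genes 31 were tested, and 13 were called, each higher with PANC-1 vesicles, against 3.22% of all genes called in that direction. The list's median log2 difference was 0.44, beside 0.01 over all tested genes, and 30 of 31 members had a positive sign. In 29 of the 31 the PPCL-68 group had the lowest mean of the 4 groups, and in 23 the untreated group had the highest. Over all tested genes, by mean log2 level, these shares were 29.9% and 36.0%. Per library, the summed level of the 31 genes was 1370, 1102 and 815 FPKM with PANC-1 vesicles, 852, 669.6 and 675 FPKM with PPCL-68 vesicles, 1426 to 1452 FPKM with residual medium and 1752 to 1924 FPKM in fresh medium. The sums of the vesicle groups overlapped, since PANC-1 library 3 lay below PPCL-68 library 1.

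The called members run through the pathway. ACAT2, which makes the acetoacetyl-CoA that the pathway starts from, had 8.43, 10.8 and 7.59 FPKM with PANC-1 vesicles and 2.84, 3.31 and 3.26 FPKM with PPCL-68 vesicles (log2 difference 1.25 ± 0.18 (SE), adjusted p = 0.0043). It overlaps TCP1 and SOD2 on the other strand. MVK and MVD, which carry mevalonate towards isoprenoids, differed by 0.76 and 0.68, FDFT1, which makes squalene, by 0.74, and LSS, which closes the ring to lanosterol, by 0.66. DHCR7, which makes the last step to cholesterol, had 52.4, 53.7 and 43.1 FPKM against 29.7, 23.4 and 24.1 FPKM (log2 difference 0.93 ± 0.14 (SE), adjusted p = 0.0052). The 3 PPCL-68 libraries of DHCR7 were below the other 9. MSMO1 and HSD17B7, which also act between lanosterol and cholesterol, differed by 0.76 and 0.73. FADS2, a desaturase of polyunsaturated fatty acids, had 93.4, 91.6 and 69.1 FPKM against 57.5, 43.3 and 42.8 FPKM (log2 difference 0.81 ± 0.13 (SE), adjusted p = 0.0088). The sterol carrier STARD4 differed by 0.62 and ACLY, which makes cytosolic acetyl-CoA, by 0.36.

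Other known targets of SREBP-2 were not among the calls. HMGCS1, which makes HMG-CoA, had 24.3, 9.70 and 5.55 FPKM with PANC-1 vesicles and 10.2, 7.25 and 8.14 FPKM with PPCL-68 vesicles (adjusted p = 0.598). INSIG1, which holds the SREBP proteins in the ER, had 135, 59.3 and 34.9 FPKM against 90.1, 48.8 and 50.7 FPKM (adjusted p = 0.908). SQLE, squalene epoxidase, had 32.9, 22.4 and 14.6 FPKM against 16.9, 15.9 and 18.4 FPKM (adjusted p = 0.353). In these 3 genes PANC-1 library 1 was the highest of its group and the groups overlapped. SCD, the stearoyl-CoA desaturase, had 131, 75.0 and 41.6 FPKM against 55.5, 29.7 and 27.4 FPKM, with an adjusted p of 0.125, and 0.0118 in the paired fit. The paired fit of the 6 libraries called 17 of the 31 (10.2% of all genes in that direction), and the fit without the libraries numbered 1 called 9, with none lower with PANC-1 vesicles in either.

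SREBF2 itself had 53.3, 50.3 and 42.9 FPKM with PANC-1 vesicles and 38.5, 34.1 and 34.0 FPKM with PPCL-68 vesicles (log2 difference 0.44 ± 0.09 (SE), adjusted p = 0.0186). The lowest PANC-1 library lay above the highest PPCL-68 library. Its promoter is shown because it was the one called member of the list whose RefSeq promoter held a sterol regulatory element core, TCACNCCAC on either strand, within 250 bases before the start. This motif was added after the values had been seen. It stood in 1 of the 24 tested members with a promoter in the table, in 0.848% of tested genes and in 0.875% of all promoters. The capitals mark the match, which begins 133 bases before the start. The window is chr22:41832855-41833104 on the plus strand (GRCh38.p14).
SREBF2: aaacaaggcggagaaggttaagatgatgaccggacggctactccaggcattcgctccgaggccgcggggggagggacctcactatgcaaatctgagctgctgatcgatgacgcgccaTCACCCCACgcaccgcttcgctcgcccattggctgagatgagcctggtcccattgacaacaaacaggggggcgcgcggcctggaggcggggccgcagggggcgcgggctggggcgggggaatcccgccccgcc

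Genes of ER-associated degradation and translocation had calls on the PPCL-68 side, while the ER chaperones were split. Among 33 tested genes of ER-associated degradation and translocation, 7 were called and each was higher with PPCL-68 vesicles, where 2.25% of all genes were. The median of the list was -0.27, and 28 of 33 had a negative sign. Among 25 tested ER chaperones and folding enzymes 3 were called, HSPA5, HSPA13 and DNAJC3, also higher with PPCL-68 vesicles, but the median of that list was -0.04 and 12 of 25 had a positive sign. The summed level of the chaperones was 1968, 2521 and 2520.0 FPKM with PANC-1 vesicles and 2396, 2372 and 2396 FPKM with PPCL-68 vesicles, which overlap. The degradation and translocation list summed to 1387, 1478 and 1492 FPKM against 1724, 1790 and 1741 FPKM, which do not. Residual medium gave 2984, 2922 and 2370 FPKM for the chaperones and 1745, 1761 and 1598 FPKM for the other list. Its group mean was the highest of the 4 in 17 of the 25 and 17 of the 33 genes. Over all tested genes, by mean log2 level, that share was 28.6%. Fresh medium gave 1657 to 2366 FPKM and 1220 to 1348 FPKM.

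HSPA5 encodes BiP, the main Hsp70 chaperone of the ER and the usual readout of the unfolded protein response (chromosome 9, hg19, 127997132 to 128003609). It had 236, 316 and 323 FPKM with PANC-1 vesicles and 481, 450.0 and 444 FPKM with PPCL-68 vesicles, with residual medium at 241 to 313 FPKM and fresh medium at 163 to 231 FPKM. All 3 PPCL-68 libraries were above the other 9. The log2 difference was -0.66 ± 0.16 (SE), with an adjusted p of 0.04 that was 0.155 without the libraries numbered 1, and HSPA5 passed in 2 of 12 fits without 1 library. HSPA13, another Hsp70 family member of the ER, had 34.9, 41.6 and 41.3 FPKM against 61.6, 61.3 and 58.8 FPKM (log2 difference -0.62 ± 0.08 (SE), adjusted p = 0.0038). It passed in all 12 such fits. DNAJC3, a BiP partner also known as p58IPK, had 19.3, 17.95 and 16.9 FPKM against 28.1, 24.0 and 22.6 FPKM (log2 difference -0.44 ± 0.09 (SE), adjusted p = 0.0202). The other large chaperones gave no call: HSP90B1 differed by -0.04 (adjusted p = 0.914), CALR by 0.51 (adjusted p = 0.321) and PDIA4 by 0.34 (adjusted p = 0.374). CALR and PDIA4 had the sign opposite to HSPA5.

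The promoters of the 3 called chaperones are shown because chaperone genes are known for the ER stress response element, searched here as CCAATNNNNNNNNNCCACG on either strand in the 250 bases before the start (RefSeq, GRCh38.p14). Capitals mark a match. HSPA5 held 1, beginning 66 bases before the start, and the windows of HSPA13 and DNAJC3 held none in these letters. The windows are chr9:125241344-125241593 for HSPA5 and chr21:14383147-14383396 for HSPA13, both on the minus strand, and chr13:95676889-95677138 for DNAJC3 on the plus strand.
HSPA5: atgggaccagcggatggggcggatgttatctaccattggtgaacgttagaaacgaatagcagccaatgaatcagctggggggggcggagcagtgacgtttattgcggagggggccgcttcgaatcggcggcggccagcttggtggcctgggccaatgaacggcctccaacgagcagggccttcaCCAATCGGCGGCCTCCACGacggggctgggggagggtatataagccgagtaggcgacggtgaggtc
HSPA13: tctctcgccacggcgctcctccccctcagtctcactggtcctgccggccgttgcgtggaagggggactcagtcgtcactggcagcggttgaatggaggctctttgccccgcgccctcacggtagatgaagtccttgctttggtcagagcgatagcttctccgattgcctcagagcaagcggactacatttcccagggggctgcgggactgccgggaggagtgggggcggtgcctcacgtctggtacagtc
DNAJC3: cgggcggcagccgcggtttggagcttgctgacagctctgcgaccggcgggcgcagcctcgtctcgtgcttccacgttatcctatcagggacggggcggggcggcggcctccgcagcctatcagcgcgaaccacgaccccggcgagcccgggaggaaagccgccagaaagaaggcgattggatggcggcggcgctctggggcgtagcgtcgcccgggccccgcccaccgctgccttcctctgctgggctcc
The element stood in 5 of the 20 tested chaperone genes with a promoter in the table, in 0.158% of the tested genes and in 0.0806% of all 27305 promoters. The other 4 chaperone genes that hold it were HSP90B1, CALR, CANX and CRELD2, with log2 differences of -0.04, 0.51, -0.21 and 0.39, none of them called.

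Of the 7 degradation and translocation genes, DNAJB9, a BiP co-chaperone known as an XBP1 target, differed most; it overlaps PNPLA8 and THAP5 on the other strand. It had 14.2, 12.8 and 11.8 FPKM with PANC-1 vesicles and 30.8, 21.7 and 21.6 FPKM with PPCL-68 vesicles (log2 difference -0.87 ± 0.13 (SE), adjusted p = 0.0046). Residual and fresh medium gave 13.5 to 16.1 FPKM, close to the PANC-1 libraries. SEC63, which couples BiP to the translocation channel, had 28.8, 31.5 and 32.2 FPKM against 43.5, 48.9 and 46.4 FPKM (log2 difference -0.57 ± 0.07 (SE), adjusted p = 0.0038). SEL1L, the scaffold of the HRD1 ubiquitin ligase, had 34.8, 37.6 and 37.7 FPKM against 53.8, 52.6 and 49.7 FPKM (log2 difference -0.49 ± 0.08 (SE), adjusted p = 0.0074). The controls of SEC63 and SEL1L lay below every PPCL-68 library. The signal recognition particle receptor SRPR, which overlaps FOXRED1 and FAM118B, differed by -0.55, the ubiquitin-like modifier UFM1 by -0.54, the channel subunit SEC61B by -0.47 and the signal peptidase subunit SPCS2 by -0.41. The paired fit of the 6 libraries called 15 of the 33 (6.42% of all genes in that direction) and the fit without the libraries numbered 1 called 6, in each case higher with PPCL-68 vesicles.

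**Figure D3:**
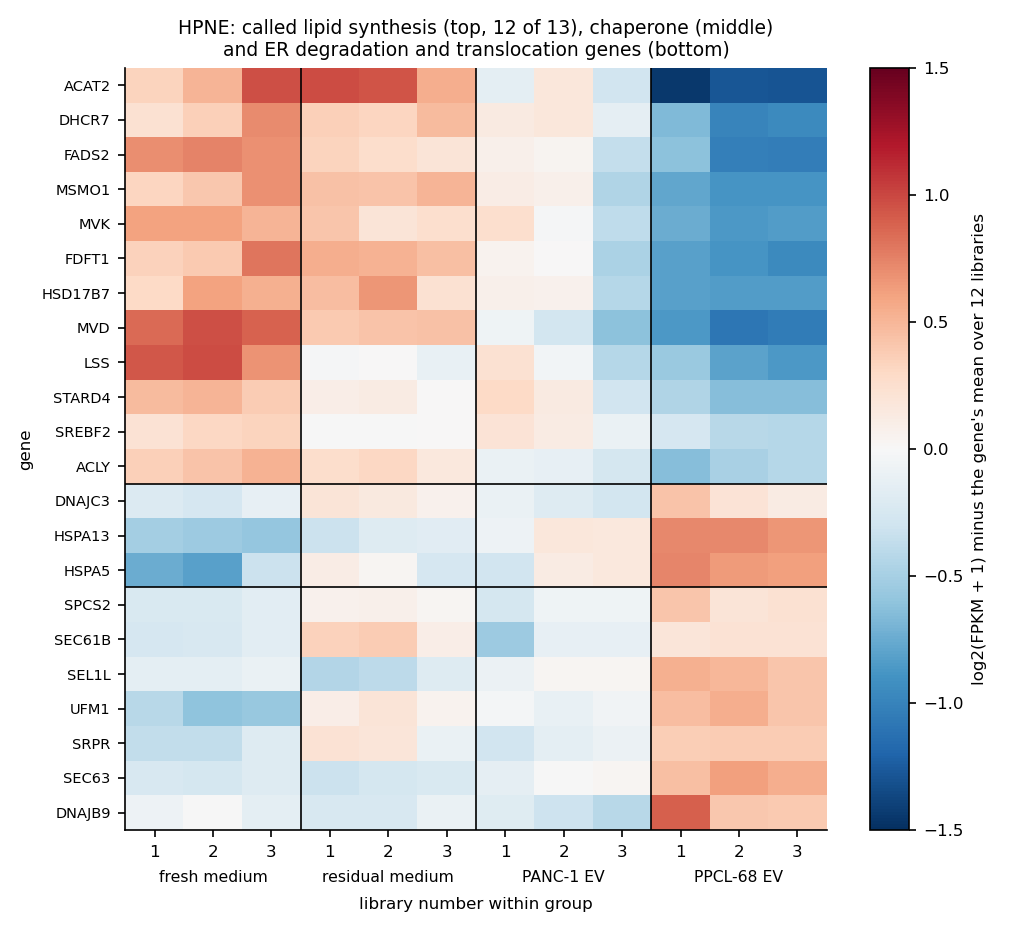
Log2(FPKM + 1) of the called genes of 3 lists, relative to its mean over the 12 HPNE libraries (colour), with libraries 1 to 3 of each group in columns. The 12 lipid synthesis genes shown (top) have their lowest group mean with PPCL-68 vesicles, and the 3 chaperone and 7 degradation and translocation genes (below) are higher there than in the PANC-1 columns.

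The stress transcription factors ATF4, DDIT3, XBP1 and ATF3 were not called, though XBP1 and ATF3 passed in the paired fit. ATF4 had 266, 244 and 228 FPKM with PANC-1 vesicles and 302, 259 and 264 FPKM with PPCL-68 vesicles (adjusted p = 0.685), and DDIT3 had 30.3, 28.5 and 27.7 FPKM against 42.0, 25.9 and 20.2 FPKM (adjusted p = 0.966). The groups overlapped for both genes. DDIT3, which overlaps MARS on the other strand, changed sign with PPCL-68 library 2 or 3 left out (-0.02 and -0.19, from 0.04) and was 0.32 without library 1. XBP1 differed by -0.30 ± 0.11 (SE), with an adjusted p of 0.12 and 0.0393 in the paired fit. ATF3, a partner factor of the ATF4 branch, had 10.03, 14.2 and 14.8 FPKM against 21.2, 21.8 and 20.5 FPKM, with an adjusted p of 0.0633 and 0.018 in the paired fit. HERPUD1, an ER degradation factor, differed by -0.28 ± 0.16 (SE) (adjusted p = 0.326). Of 22 tested genes of the ATF4 and CHOP list, PPP1R15A alone was called. By sign 17 of the 22 were higher with PPCL-68 vesicles, and the median was -0.23. PPP1R15A encodes GADD34, which reverses the translation block, and had 144, 214 and 237 FPKM against 281, 328 and 316 FPKM (log2 difference -0.66 ± 0.17 (SE), adjusted p = 0.0485). The paired fit called 6 of the 22, all higher with PPCL-68 vesicles (6.42% of all genes), and the fit without the libraries numbered 1 called none.

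Of 26 tested genes of amino acid transport and synthesis, 23 had a negative sign and the median was -0.29. SLC7A2 and SLC38A2 were called, 2 of 26 where 2.25% of all genes were called in that direction, and SLC7A2 alone was called without the libraries numbered 1. SLC38A2, a sodium-coupled transporter of neutral amino acids, had 175, 185 and 186 FPKM with PANC-1 vesicles and 242, 302 and 273 FPKM with PPCL-68 vesicles (log2 difference -0.57 ± 0.14 (SE), adjusted p = 0.0346). Both vesicle groups were above the controls, at 81.9 to 139 FPKM. ASNS, asparagine synthetase, had 113, 149.7 and 149 FPKM against 175, 199 and 192 FPKM, with an adjusted p of 0.447 and 0.0213 in the paired fit, which called 9 of the 26 as higher with PPCL-68 vesicles, where it called 6.42% of all genes so. None of the 20 tested cytosolic aminoacyl-tRNA synthetases was called (limma; 3 had an unadjusted p under 0.05, and the voom fit on reads called 0).

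Cell-cycle genes had a common sign without a call. Of 40 tested genes of mitosis and spindle 39 were higher by sign with PANC-1 vesicles, with a median of 0.49, and none had an unadjusted p under 0.05 in the limma fit or a call in the voom fit. Their summed level was 233, 305 and 266 FPKM with PANC-1 vesicles and 123, 223 and 203 FPKM with PPCL-68 vesicles. Library 1 was the lowest of each group. The spread among the controls was far wider, from 165 to 371 FPKM in fresh medium and from 306 to 1203 FPKM with residual medium, where library 3 was the low one. The paired fit of the 6 libraries called 23 of the 40, all higher with PANC-1 vesicles, a direction in which it called 10.2% of all genes. Among them were CDK1, the kinase that starts mitosis, CCNB1, its cyclin, TOP2A, topoisomerase II alpha, and MKI67, the proliferation marker Ki-67. CDK1 had 8.19, 13.8 and 11.8 FPKM against 4.08, 9.97 and 8.94 FPKM, higher with PANC-1 vesicles in each numbered pair (adjusted p = 0.581 without the pairing and 0.0257 with it). Of 34 DNA replication genes 32 had a positive sign, with a median of 0.32. None was called, 4 had an unadjusted p under 0.05, the voom fit called 0 and the paired fit 10. Without the libraries numbered 1, no gene of either list was called.

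Matrix genes were mixed, with most calls on the PANC-1 side. Of 39 tested collagens and matrix proteins 7 were higher and 1, LOXL2, lower with PANC-1 vesicles, where 3.22% and 2.25% of all genes were. LAMA4, a laminin chain, had 26.4, 36.6 and 32.1 FPKM with PANC-1 vesicles and 12.1, 12.7 and 12.2 FPKM with PPCL-68 vesicles (log2 difference 1.28 ± 0.17 (SE), adjusted p = 0.0038). MFAP4, a microfibril protein, had 33.4, 43.8 and 37.0 FPKM against 14.99, 16.8 and 20.6 FPKM, and LOXL1, an enzyme that crosslinks elastin, 48.6, 45.8 and 45.4 FPKM against 24.5, 22.5 and 22.9 FPKM. The groups were well separated in all of these. The PPCL-68 group had the lowest mean of the 4 groups in each of the 7. By mean log2 level that was so for 89.2% of the 370 genes called in this direction, and for 29.9% of all tested genes. LUM, the proteoglycan lumican, differed by 0.98. The abundant COL6A2, a collagen VI chain, had 3493, 3557 and 3449 FPKM against 2324, 2320.3 and 2501 FPKM (log2 difference 0.56 ± 0.14 (SE), adjusted p = 0.0451, and 0.0771 without the libraries numbered 1). SPARC, a matrix glycoprotein kept on the line marker list, differed by 0.57. In the paired fit 17 matrix genes were higher and 2 lower with PANC-1 vesicles (10.2% and 6.42% of all genes), and without the libraries numbered 1 there were 5 and 0. Of 20 proteases and inhibitors of the matrix 3 were higher, TIMP2 (0.38), TIMP3 (0.73) and MMP11 (1.27), and MMP3 was lower. Of these TIMP3 alone was called without the libraries numbered 1, where MMP11 had an adjusted p of 0.127 and TIMP2 of 0.0518; MMP11 passed in 3 of 12 fits without 1 library and TIMP2 in 4. TIMP2 and TIMP3 inhibit matrix metalloproteinases, MMP11 is stromelysin-3 and overlaps CHCHD10 on the other strand. Of 26 genes of epithelial-mesenchymal change and TGF-beta signalling 2 were called, both lower with PANC-1 vesicles (2.25% of all genes): PMEPA1 and TGIF1, a repressor of SMAD targets, with 24.2, 28.4 and 29.2 FPKM against 46.4, 45.9 and 40.7 FPKM.

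Antigen presentation and autophagy genes had calls on the PPCL-68 side and none on the other, where 2.25% and 3.22% of all genes had them. Of 16 MHC class I genes 3 were called. TAP2, which with TAP1 pumps peptides into the ER, had 7.51, 7.86 and 8.03 FPKM with PANC-1 vesicles and 13.6, 13.3 and 12.9 FPKM with PPCL-68 vesicles (log2 difference -0.70 ± 0.08 (SE), adjusted p = 0.0021). TAP1 differed by -0.60 and PSME2, a proteasome activator subunit, by -0.55. For TAP1 and TAP2 the PPCL-68 group was above the other 9 libraries. Of 27 autophagy genes 4 were called: SQSTM1, the cargo receptor p62, which overlaps C5orf45 and MGAT4B, had 232, 232 and 231 FPKM against 343, 317 and 355 FPKM (log2 difference -0.54 ± 0.10 (SE), adjusted p = 0.0148), and GABARAPL1, ATG16L1 and ATG12 differed by -0.63, -0.41 and -0.31. Those 3 were not called without the libraries numbered 1 (adjusted p of 0.176, 0.116 and 0.129) and passed in 2, 3 and 2 of 12 fits without 1 library. PSME2 was also lost without the libraries numbered 1 (adjusted p = 0.0998). On the PANC-1 side stood 4 of 35 lysosome genes (3.22% of all genes), among them LIPA, lysosomal acid lipase (0.87; it spans IFIT1, IFIT2 and IFIT3 on the other strand), and TFEB, the master factor of lysosome genes (0.62). CTSS, the protease cathepsin S, was called in the other direction (-0.81; adjusted p = 0.129 without the libraries numbered 1). The sterol transporters of the lysosome split: NPC2 was higher with PANC-1 vesicles (0.57) and NPC1 lower (-0.55).

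Other lists had few calls, to be read beside the 3.22% and 2.25% of all genes. Of 26 NF-kB cytokines and chemokines 2 were higher with PANC-1 vesicles, NFKB1 (0.45) and PTGS2, cyclooxygenase-2 (0.62), and CXCL5 was lower. IL8, the most abundant chemokine, had 1109, 1658 and 1461 FPKM with PANC-1 vesicles and 2817, 2333 and 2393 FPKM with PPCL-68 vesicles, with an adjusted p of 0.111 and 0.0295 in the paired fit. IL6 had 18.8, 42.0 and 27.9 FPKM against 42.1, 14.4 and 11.5 FPKM; PPCL-68 library 1 was the high one, and without the libraries numbered 1 IL6 differed by 1.35 (adjusted p = 0.0115). Of 27 interferon-stimulated genes IFIT2 was higher with PANC-1 vesicles (0.96) and PARP14 lower (-0.53). Of 29 glycolysis and hypoxia genes 4 were higher, PFKL (0.84), PKM (0.56), HK1 (0.51) and PGK1 (0.37). The PPCL-68 group had the lowest mean of the 4 groups in each of these 4 genes. By mean log2 level that was so for 89.2% of the 370 genes called in this direction, and for 29.9% of all tested genes. PFKL and PGK1 each passed in 4 of 12 fits without 1 library. PKM and HK1 were not called without the libraries numbered 1 (adjusted p of 0.0630 and 0.0644). Of 4 tested metallothionein genes MT1E (-0.57) and MT1M (-0.56) were lower with PANC-1 vesicles; these near-identical genes can share reads. Among 18 ERK genes HBEGF (1.62) and DUSP4 (0.77) were higher and HMGA2 (-0.73) lower, and KLF10 (-0.76) was lower among 23 immediate-early factors. Single calls were HSPB1, a small heat shock protein (0.65, of 22), SPATA18 (0.42, of 23 p53 targets), MYOF (0.74, of 20 YAP targets), the proteasome subunit PSMA5 (-0.43, of 29) and the ribosomal protein RPS9 (0.42, of 73). HSPB1 passed in 11 of 12 fits without 1 library, and SPATA18, MYOF, PSMA5 and RPS9 in 2, 6, 4 and 3. Without the libraries numbered 1, SPATA18, MYOF and PSMA5 were not called (limma adjusted p of 0.12, 0.0815 and 0.147). Of 30 vesicle genes RAB27B was higher and VPS4B, an ATPase of the ESCRT machinery, lower (-0.33), and SQSTM1 was the one call among 21 NRF2 genes. The angiogenic factors (15 tested, 6 with an unadjusted p under 0.05) and the genes of the mitochondrial genome (13 tested, 0) had no limma call and none with voom.

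**Figure D4:**
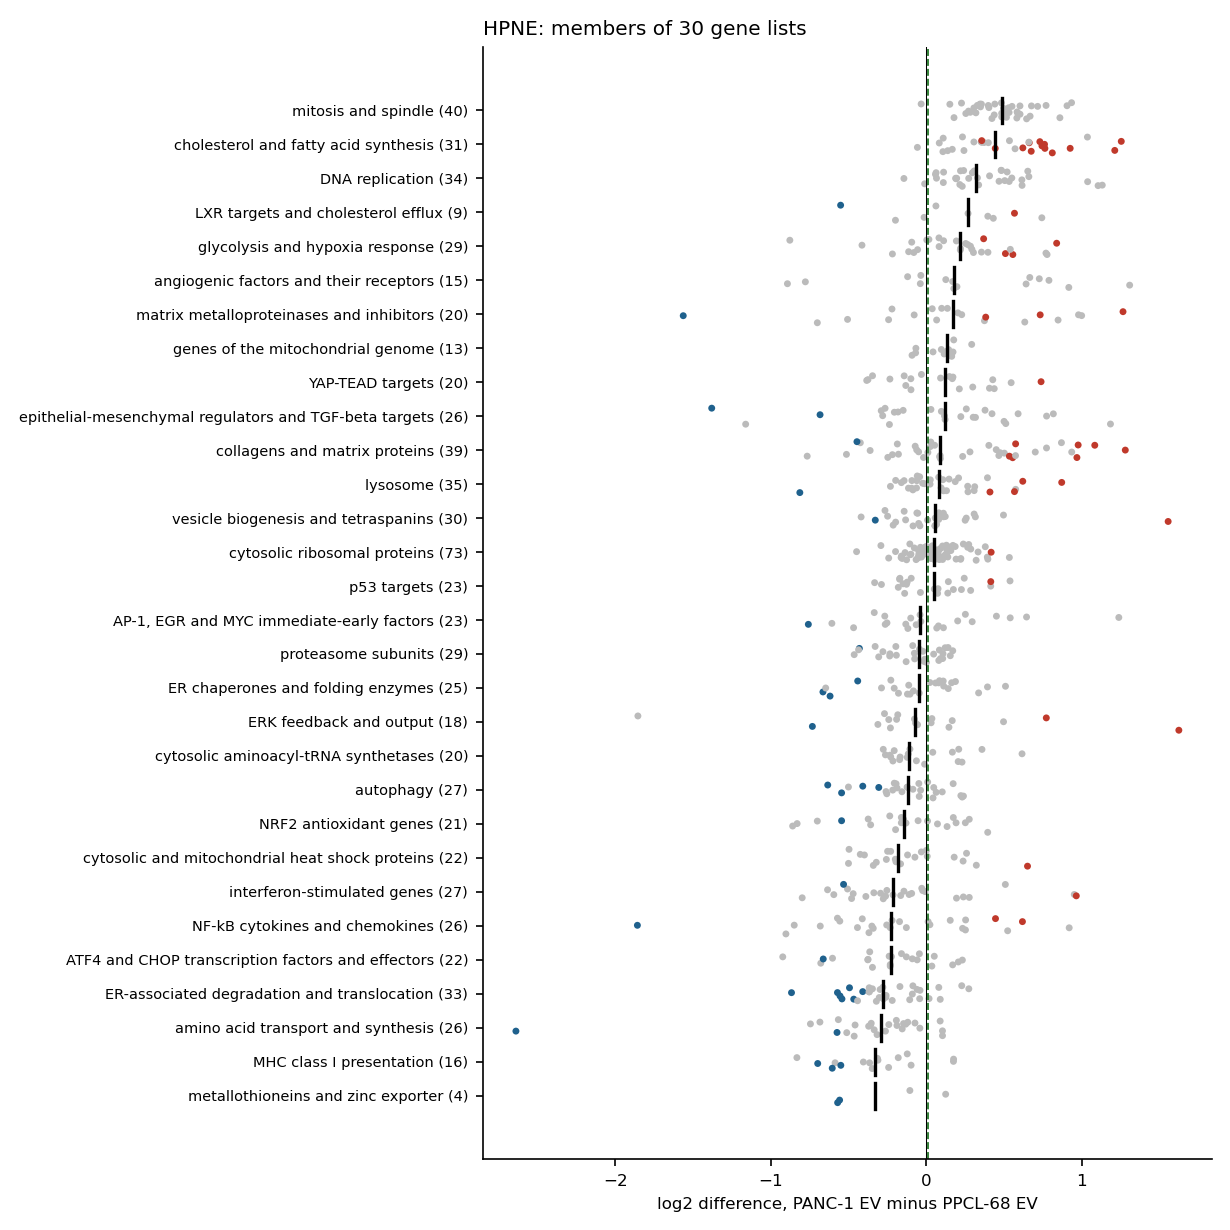
Log2 difference between the vesicle groups (horizontal axis, PANC-1 minus PPCL-68) for each tested member of 30 lists, with the number tested in brackets. Red and blue points are called genes, black bars are list medians and the dashed green line is the median of all genes at 0.01; mitosis and lipid synthesis lie highest, but no mitosis gene was called.

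Levels in the controls show where the genes sit. The comparisons with residual and fresh medium share libraries with the one that chose the genes, so their values are a description. Of the 370 genes higher with PANC-1 vesicles, 330 (89.2%) had their lowest group mean with PPCL-68 vesicles, where 29.9% of all tested genes did. Of the same 370, 252 (68.1%) had their highest in fresh medium, where 36.0% of all tested genes did. The median log2 difference of the 370 from residual medium was 0.07 with PANC-1 and -0.49 with PPCL-68 vesicles, and from fresh medium -0.29 and -0.85. Of the 259 genes higher with PPCL-68 vesicles, 244 (94.2%) had their highest group mean there, beside 26.3% of all tested genes. The median difference of the 259 from residual medium was 0.06 with PANC-1 and 0.55 with PPCL-68 vesicles, and from fresh medium 0.15 and 0.63. The PANC-1 group was the nearer to residual medium for 273 of the 370 and 216 of the 259, and the PPCL-68 group for 97 and 43. That count was not made over all tested genes, and the same vesicle libraries had chosen the genes. Leading genes stood among the 97: ANGPTL2 differed from residual medium by 2.27 with PANC-1 and 0.44 with PPCL-68 vesicles, SCG2 by 1.93 and 0.37, and RAB27B by 1.46 and -0.10.

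The 8 most abundant called genes were TMSB4X, SPARC, PKM, COL6A2, TIMP2, EIF1, MT1E and HSPA5, and they sat differently against residual medium. TMSB4X, thymosin beta-4, which binds actin monomers, had 548, 528 and 449.8 FPKM with PANC-1 vesicles and 327, 238 and 239.7 FPKM with PPCL-68 vesicles, against 499 to 649 FPKM with residual medium. EIF1, a translation initiation factor, had 259, 305 and 308 FPKM against 428, 408 and 384 FPKM, with controls at 179 to 248 FPKM. EIF1 was above residual medium by 0.58 with PANC-1 vesicles as well. COL6A2 differed from residual medium by 0.42 with PANC-1 and -0.14 with PPCL-68 vesicles, and PKM by -0.68 and -1.24. SULF1, a sulfatase that trims heparan sulfate, and SNED1, a matrix protein, were among the 10 genes of smallest adjusted p. SULF1 had 10.8, 12.1 and 10.8 FPKM against 5.24, 5.76 and 5.75 FPKM (adjusted p = 0.0019), and SNED1 4.79, 5.39 and 4.02 FPKM against 1.38, 1.37 and 1.56 FPKM (adjusted p = 0.0011). At the threshold stood PLEKHG5 and UBE2D3, just inside, with log2 differences of 0.43 and -0.27, and HRCT1 and PSMD8, just outside, with 0.60 and -0.46.

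HPDE gave the same contrast in libraries that share nothing with HPNE. There 6123 of 12223 genes (50.1%) were called. Of the 629 HPNE genes 530 were tested in HPDE, and 343 were called, 277 in the same direction (52.3%) and 66 in the opposite one (12.5%), beside 33.1% and 18.1% of all genes tested in both lines. The sign was shared by 394 of 530 (74.3%), beside 58.5% of the 9953 genes not called in HPNE. The difference between the lines was itself called at 258 of the 530 (48.7%), beside 1593 of 10483 genes (15.2%) tested in both, and at all 66 of opposite direction. This test reuses the HPNE libraries that chose the 530, and that choice raises their share. Calls of opposite sign in the lines also favour a call in this test, so neither count is a separate result.

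Among genes called alike, CDH4 differed by -1.27 in HPNE and -1.28 in HPDE, and PLEKHA4, a phosphoinositide-binding protein, by 1.31 and 0.93. ACAT2 differed by 1.25 and 0.91, IFIT2 by 0.96 and 0.93, ARHGDIB by 1.09 and 0.93, and FDFT1 by 0.74 and 0.78. MNS1 (0.80 and 0.91), TSPYL2 (-0.83 and -0.88) and AC068580.5 (-0.93 and -0.93; it lies within CTSD) were also among the 8 most alike. HSPA5 differed by -0.66 and -0.85, DNAJC3 by -0.44 and -1.23, and SQSTM1 by -0.54 and -0.95. In HPDE 21 of 25 ER chaperones and 31 of 33 degradation and translocation genes were called lower with PANC-1 vesicles, with medians of -0.46 and -0.49, where 24.9% of all genes were; 1 degradation gene was called higher. The lipid list split there, with 14 of 31 higher and 6 lower and a median of 0.14. Among DNA replication genes 30 of 34 were called higher with PANC-1 vesicles and none lower, and among mitosis genes 28 of 40 higher and 2 lower, where 25.2% of all genes were called higher.

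Other leading HPNE genes did not carry over. SLC7A2 differed by 0.09 in HPDE (adjusted p = 0.35), with a line difference of -2.73 ± 0.24 (SE). SFRP1 differed by 2.38 in HPNE and -0.18 in HPDE, H1F0 by -1.18 and 0.23, and KDELR3, a receptor that returns ER proteins from the Golgi and overlaps DDX17, by 0.95 and -0.61. KDELR3 had 34.4, 44.6 and 45.5 FPKM with PANC-1 vesicles in HPNE and 16.6, 22.3 and 24.3 FPKM with PPCL-68 vesicles, so it ran against the called chaperones in the same cells. TAP2 differed by -0.70 and 0.29 and PARP14 by -0.53 and 0.36. Besides KDELR3, the 8 most opposite genes included CORO2B (0.91 and -0.46), FAM127A (0.57 and -0.51), NECAB3 (0.40 and -0.45), STOM (-0.50 and 0.53), ENOSF1 (-0.58 and 0.44; it overlaps TYMS), HES7 (-0.69 and 0.42) and MT1E (-0.57 and 0.39). NPTX1, FAM20C, ANGPTL2, CXCL5 and MMP3 were below the HPDE filter and could not be compared.

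**Figure D5:**
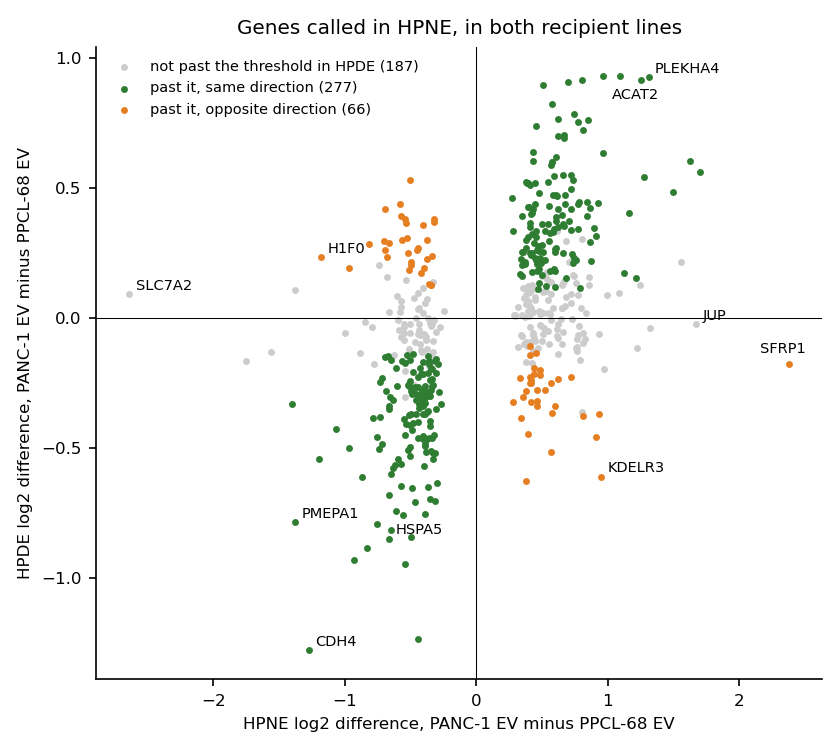
Log2 difference between the vesicle groups in HPDE (vertical axis) against HPNE (horizontal axis) for the 530 genes called in HPNE and tested in HPDE. Green points are called in HPDE in the same direction (277), orange in the opposite one (66) and grey not called there (187); SLC7A2 and SFRP1 lie near 0 on the HPDE axis.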

How the data were processed

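RNA of 24 cultures was sequenced. Per the submitters' processing notes CASAVA, STAR, HTSeq and DESeq2 were used with hg19, with no versions or roles given here, and the authors deposited 1 table per sample with FPKM for each gene, per the file headers. FPKM multiplied by gene length gave whole multiples of 1 step for 100% of values (within 0.01 of a read), so reads per gene were recovered; these served for depth and for 1 alternative. The kit kept no strand. Of 124 genes that were named by rule or called in a list, 32 overlap another tested gene, and not all of these are marked above. Among the unmarked, ATG12 overlaps AP3S1, and FADS2 overlaps FADS1 and FEN1.

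Genes averaging 1 FPKM or more in the 12 HPNE libraries were tested with limma 3.58.1 (R 4.3.3; lmFit, eBayes with trend) on log2(FPKM + 1), with 4 groups, 8 residual degrees of freedom and Benjamini-Hochberg adjustment over all 11503 genes; differences on this scale understate the change of low genes. HPDE was fitted alike, and the difference between the lines in 1 fit of 24 libraries. In data simulated for this comparison the fit called 1 of 11497 unchanged genes. It recovered 29% of 1.5-fold changes (11490 genes), 76.02% of 2-fold changes (11494 genes) and 88.83% of 3-fold changes (11475 genes). Each gene was drawn on its own in each library, without the deviations that same-numbered libraries shared over genes. The simulated rates therefore cannot be carried over to the real libraries.

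Same-numbered vesicle libraries deviated from their group means together (correlations over genes of 0.565, 0.292 and 0.4997 for numbers 1, 2 and 3; between numbers 2 and 3 they were 0.260 and 0.438, and with number 1 negative). The numbers come from the sample titles, and were taken as pairs on that ground; the paired fit of the 6 libraries was chosen once the data were known.

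The members and lists were chosen with earlier results of these data known. The rule for named genes took the 15 largest differences each way among called genes without overlap, the 8 most abundant, up to 4 per list, 6 stress genes, the 8 most alike and 8 most opposite across lines, the 10 of smallest adjusted p and the 2 on each side of the threshold; other list members are named for completeness, chosen after their values were seen. Alternatives changed the pseudocount, filter, scaling, model, libraries and pairing. Promoters came from RefSeq (GRCh38.p14), which matched 8253 of the 11503 genes by symbol. Some genes of the lists are counted but not reported here by name.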

Additional observations from a re-analysis of the deposited data

Results flagged for a closer look

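The difference between the vesicle sources itself differed between HPNE and HPDE at 1593 genes (limma interaction test, adjusted p under 0.05). Among the genes named above and the called members of the lipid synthesis, ER chaperone and ER degradation lists, the following passed that test. Each value here is the HPNE difference (PANC-1 minus PPCL-68 vesicles, log2) minus the HPDE difference.

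More positive in HPNE by the most were SFRP1 (2.56), JUP (1.7), KDELR3 (1.56), CORO2B (1.37), RAB27B (1.34), LOXL1 (1.16), BDKRB2 (1.14), FAM127A (1.09), HBEGF (1.02) and TNFRSF21 (1.01). Smaller positive values belonged to TMSB4X (0.993), MSMO1 (0.846), NECAB3 (0.842), PFKL (0.821), NPC2 (0.818), DNAJC3 (0.794), DUSP4 (0.684), TIMP2 (0.662), LIPA (0.653), SPATA18 (0.652) and TFEB (0.644). Positive values closest to 0 were those of MVD (0.629), TIMP3 (0.569), MVK (0.536), LSS (0.527), HSPB1 (0.526), PLEKHG5 (0.488), DHCR7 (0.483), SQSTM1 (0.401) and SEL1L (0.349).

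More negative in HPNE by the most were SLC7A2 (-2.73), C15orf48 (-1.59), FOXQ1 (-1.49), NRCAM (-1.43), H1F0 (-1.41), LIPG (-1.16), HES7 (-1.11) and CTSS (-1.1). Smaller negative values belonged to IL32 (-1.07), STOM (-1.03), ENOSF1 (-1.02), TAP2 (-0.992), MT1E (-0.963), SLC19A2 (-0.942), PARP14 (-0.896) and ATF3 (-0.695). Negative values closest to 0 were those of TAP1 (-0.688), PTPRK (-0.643), SLC38A2 (-0.639), PSME2 (-0.491), NPC1 (-0.464), TGIF1 (-0.404) and UBE2D3 (-0.24). A value above 0 can also mean that a gene was lower with PANC-1 vesicles in both lines and less so in HPNE, as for DNAJC3, SEL1L and SQSTM1.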

How the results depend on the processing

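Each of the 629 genes kept its direction in every alternative in which it was tested. Where libraries were left out this was fixed in advance, as the vesicle groups did not overlap at these genes. The number of called genes was 335 (178 higher with PANC-1 vesicles, 157 with PPCL-68 vesicles) with no filter on low values. It was 323 (199 and 124) with the 6 compared libraries alone. The replicate block gave 550 calls over 12 libraries and 1908 (1170 and 738) over the 6 compared. Without both vesicle libraries numbered 1, 166 were higher with PPCL-68 vesicles. Median-of-ratios size factors gave 801 calls, 422 against 379, which lowered the share higher with PANC-1 vesicles from 58.8% to 52.7%; without PPCL-68 library 1 that share was 68.2%. Leaving out 1 library at a time gave 135 to 1309 calls, 82 to 715 higher with PANC-1 vesicles and 53 to 594 with PPCL-68 vesicles. The 58 calls of at least 1 on the log2 scale became 124 with a pseudocount of 0.1, 123 with voom on recovered reads, 105 with the replicate block over 6 libraries, and 35 to 110 without 1 library. The counts for HPDE and for the difference between the lines moved by less than 1.5 times in the alternatives run.

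For the 109 named genes 2271 alternative values were computed: 1716 kept direction and side of the threshold, 534 lost the threshold, 19 gained it and 2 changed sign. Those 2 were DDIT3 without PPCL-68 library 2 (-0.02) and library 3 (-0.19); without 1 library it ranged from -0.19 to 0.32. Of the 102 called named genes 35 passed in every alternative. The causes were not tested. In the simulated data, which held no deviations shared between genes, 1.5-fold changes were mostly missed with 3 libraries a group.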
